A study of Mus musculus with 116 samples.

Results

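The 10 genes of the endoplasmic reticulum (ER) folding system described here, across 116 mouse libraries, are Hspa5, Hsp90b1, Calr, Canx, Pdia3, Pdia4, Pdia6, Ddit3, Atf4 and Xbp1. They were taken by name from a table of 40202 gene symbols, and all 10 were found in every file. The libraries were made by nanoSPLITS, a method that divides the lysate of very small samples between droplets, so that RNA is sequenced from only a portion of it. An input series of C10 cells had 8 libraries of 1 cell each, 6 of 3 cells and 6 of 10 cells. A separate set held 48 single cells of C10 and 48 of SVEC. C10 is a mouse line of alveolar type II epithelial origin and SVEC a mouse endothelial line. All were in standard culture with no treatment, so no agent that burdens the ER was applied in any group, and no genotype other than the line is given.

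The ER is where secreted and membrane proteins are folded. Hspa5 (BiP) and Hsp90b1 (GRP94) are its Hsp70 and Hsp90 chaperones, Calr and Canx (calreticulin and calnexin) hold glycoproteins while they fold, and Pdia3, Pdia4 and Pdia6 make and rearrange disulfide bonds. When unfolded protein accumulates, the sensors ATF6, IRE1 (Ern1) and PERK (Eif2ak3) start the unfolded protein response: cleaved ATF6 and the spliced form of XBP1 act on chaperone promoters, and PERK slows translation while the mRNA of the transcription factor ATF4 is translated more. ATF4 drives amino acid synthesis and transport genes and Ddit3 (CHOP), and it also answers kinases outside the ER, such as the amino acid sensor GCN2. Gene counts do not separate the spliced from the unspliced Xbp1 mRNA and say nothing of ATF4 translation.

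The promoters are shown first, because 5 of the 7 chaperone and disulfide isomerase genes hold 1 sequence element in them that Ddit3, Atf4 and Xbp1 lack. All 10 genes had an entry in the RefSeq promoter table of assembly GRCm38.p6, which runs from 250 bases before each gene's start to 50 after it. The ER stress response element (ERSE, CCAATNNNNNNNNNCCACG, searched on both strands) occurred without a mismatch in 5 of them, all chaperone genes, and in 39 of all 32851 promoters (0.119%). In the stretches below, written 5′ to 3′ on the strand of the gene, capitals mark the CCAAT and CCACG ends of the element, or their reverse complements ATTGG and CGTGG.

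Hspa5, chr2:34772010-34772058, plus strand: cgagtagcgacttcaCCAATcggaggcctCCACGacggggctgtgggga

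Hsp90b1, chr10:86705518-86705671, minus strand: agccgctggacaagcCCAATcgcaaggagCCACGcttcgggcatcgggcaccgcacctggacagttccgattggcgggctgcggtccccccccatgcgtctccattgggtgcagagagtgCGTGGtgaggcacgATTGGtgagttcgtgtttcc

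Calr, chr8:84847060-84847108, minus strand: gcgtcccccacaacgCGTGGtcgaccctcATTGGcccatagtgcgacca

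Canx, chr11:50325785-50325833, minus strand: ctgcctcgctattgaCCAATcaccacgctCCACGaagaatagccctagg

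Pdia6, chr12:17266476-17266524, plus strand: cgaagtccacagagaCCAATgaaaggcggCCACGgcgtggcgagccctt

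Hsp90b1 held 2 copies in opposite orientation, and the others 1 each. The copy nearest to a start was that of Hspa5, which lay 65 to 47 bases before it, and the farthest was the upstream copy of Hsp90b1, 212 to 194 bases before it. With 1 of the 10 fixed letters allowed to differ, a rule added after the data were seen, 8 of the 10 genes matched, Pdia3, Pdia4 and Ddit3 being added, against 494 of the 32851 promoters. Atf4 and Xbp1 did not match under either rule. The related ERSE-II (ATTGG and CCACG with 1 free base between, 0.0365% of promoters), the core of the unfolded protein response element (TGACGTGG, 0.676%) and a composite site of ATF4 and C/EBP factors (TGATGNAA, 3.97%) occurred in 0 of the 10. Among the other pathway genes with an entry, the exact element was found in Creld2, Dnajc3 and Ero1b of 24 further chaperones and folding enzymes, and in Derl3 and Syvn1 of 15 degradation genes. It was found in 0 of 5 sensors, 0 of 13 translocon genes, 0 of 21 ATF4 targets and 0 of 10 heat shock and immediate early genes. A match describes these letters and is not evidence of binding.

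Depth differed between the groups and touches every comparison below. Libraries of the input series (1, 3 and 10 cells) held 430798 to 15385625 counts over genes, the C10 single cells kept for analysis 83188 to 5911755 and the SVEC single cells 5122 to 2831907. Of the C10 single cells, 2 had under 1000 counts and were dropped, so 46 remained. A level of 3 counts, the smallest told from 0, was 0.507 to 36.1 CPM in C10 and 1.06 to 586 CPM in SVEC single cells, with a SVEC median of 6.95. Replicate 1 of the 1-cell group stood apart: 95.1% of its reads were unaligned, 538 genes were detected, and all 10 genes described here were at 0. No culture, plate or sequencing batch is named for any library, so the p-values below measure the spread between these cells or small pools, not between cultures, and a batch cannot be told apart from a group. Of 10 markers of alveolar type II cells, the surfactant genes (Sftpa1, Sftpb, Sftpc, Sftpd), Slc34a2 and Nkx2-1 were at 0 in every single cell of both lines. Etv5 alone was found in at least 50% of the C10 single cells, and none of the 10 in that share of SVEC cells. Of 5 epithelial markers, Cdh1 alone reached that share in C10 single cells and 0 did in SVEC. The median summed levels in C10 single cells were 0.712 CPM for the type II list and 0.317 CPM for the epithelial list. No endothelial marker of 12 was found in at least 50% of the SVEC libraries or of the C10 single cells. In the 1-cell C10 libraries Pecam1, Cdh5, Flt1 and Tek reached that share, with a median summed level of 3.48 CPM for the 12. The mesenchymal genes Vim, Col1a1, Col3a1 and Acta2 were found in at least 50% of the single cells of both lines. C10 and SVEC are therefore used here as names of the lines.

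In C10 single cells, Calr had the highest mean of the 10 transcripts in CPM (counts scaled to a library total of 1000000), and Hsp90b1 the highest median. Calr ranged from 75.4 to 2840 CPM with a median of 849.7 (n = 46), Hsp90b1 from 0 to 2216 with a median of 868, Atf4 from 13.2 to 1682 with a median of 803, Pdia3 from 100.2 to 2584 with a median of 595, Pdia6 from 21.8 to 1458 with a median of 562 and Canx from 0 to 1371 with a median of 494. Ddit3 (median 169 CPM, highest 539), Pdia4 (153, highest 726), Xbp1 (101, highest 485) and Hspa5 (79.5, highest 320) were lower, and each was at 0 in some cells. Calr, Pdia3, Pdia6 and Atf4 had counts in all 46 C10 cells, Hsp90b1 and Canx in 45, Hspa5 and Ddit3 in 44, Xbp1 in 42 and Pdia4 in 41.

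SVEC single cells held the same 10 transcripts with more cells at 0. Hsp90b1 had the highest median there, 921 CPM with a range of 0 to 3718 (n = 48), followed by Calr at 418 (0 to 1497), Pdia3 at 404 (0 to 1859), Atf4 at 401 (0 to 2152), Pdia6 at 395 (0 to 1355) and Canx at 271 (0 to 1260). The medians of Pdia4, Ddit3 and Hspa5 were 135, 123 and 96.5 CPM. Xbp1 stood apart with a median of 9.43 CPM and counts in 28 of 48 cells, against 42 of 46 in C10. With every library thinned to 100000 counts, which left out 1 C10 and 6 SVEC libraries, Xbp1 was found in 86.7% of C10 and 59.5% of SVEC cells.

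**Figure D1:**
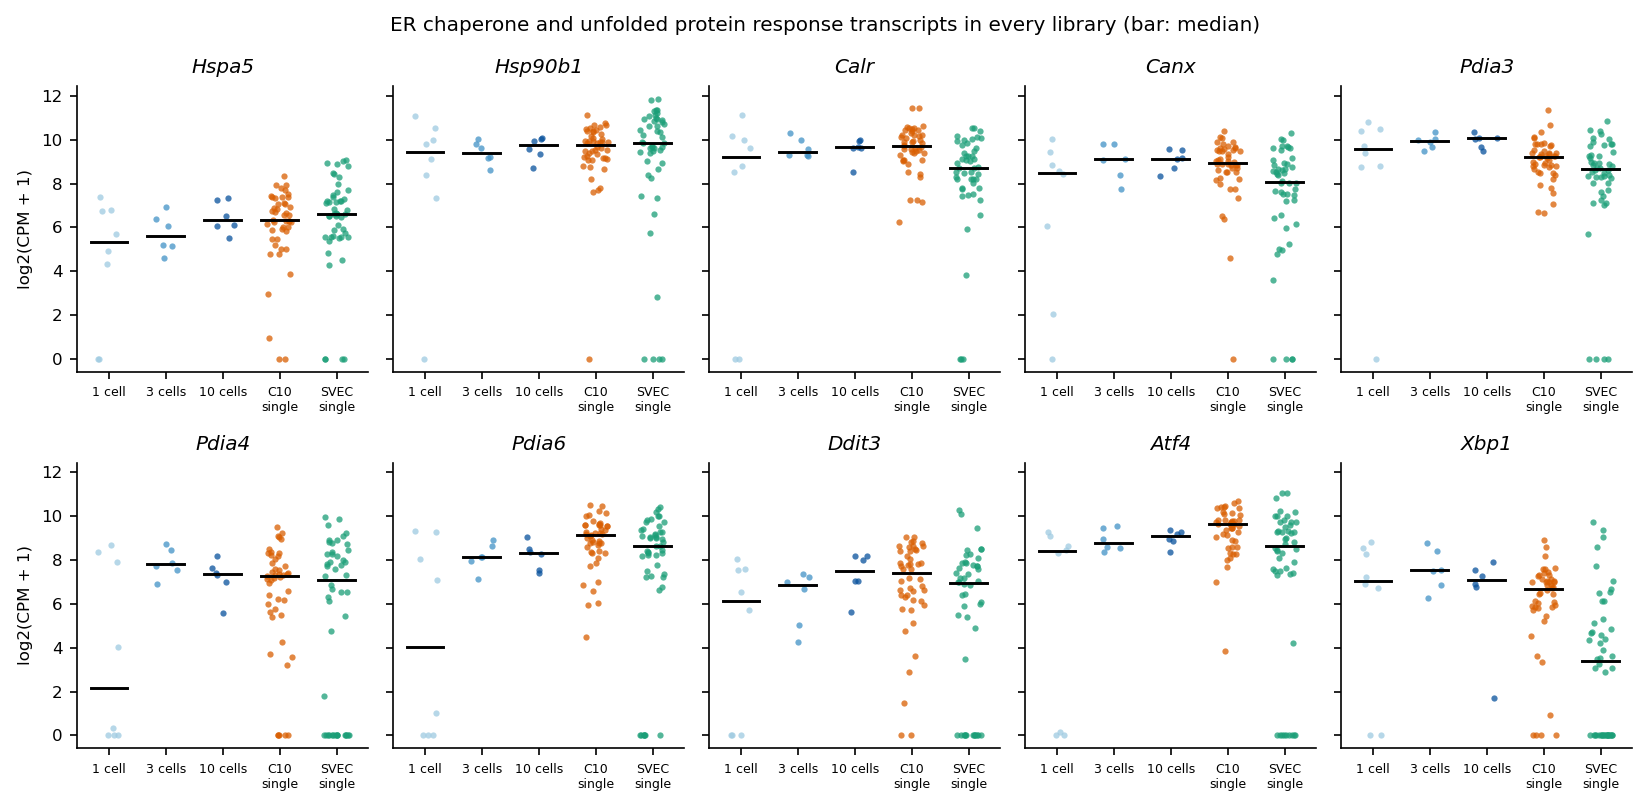
Each point is 1 library, on a vertical axis of log2(CPM + 1), in the 1-cell (n = 8), 3-cell (n = 6) and 10-cell (n = 6) C10 libraries and the single cells of C10 (n = 46) and SVEC (n = 48); black bars are medians. The 3-cell and 10-cell libraries have counts for all 10 genes, whereas points at 0 occur in the 1-cell and single-cell groups, most often for Xbp1 in SVEC.

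To compare genes with each other, CPM was divided by the length of the exons in kilobases (GENCODE models). On this scale the 4 highest medians in every group belonged to Pdia3, Calr, Hsp90b1 and Atf4, in differing order, and Hspa5 was last in the 3-cell, 10-cell and C10 single-cell groups, with 11.9, 18.8 and 18.8 CPM per kb. In C10 single cells Atf4 (median 340 CPM per kb) stood above Calr (295) in 25 of 46 cells and below it in 21, so these neighbours overlapped fully. Calr stood above Hsp90b1 (215) in 34 of 46 cells, and Hsp90b1 above Pdia3 (189) in 29. At the low end, Xbp1 (31.1) stood above Hspa5 (18.8) in 32 of 46 cells. In the 3-cell libraries Xbp1 stood above Hspa5 in 6 of 6, the only neighbouring pair in the input series that kept its order in every library. Exons of other genes cover 15.7% of the Hsp90b1 exons and 4.73% of those of Ddit3 in the GENCODE models. For Pdia3, Pdia4 and Pdia6 the share is 0.573% to 1.34%, and for the other 5 genes it is 0%. RefSeq differs: it has no gene overlapping Hsp90b1, but Rabepk overlaps the span of Hspa5, and Mbd6 and Mars1 that of Ddit3. The annotation used for counting is not given, so which counts are the least certain cannot be told. Whether the counting used strand is not given in the sources used here.

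The first comparison asks how the lines differ. Calr was higher in C10 cells: its mean was 943 ± 571 CPM (SD, n = 46) against 525 ± 399 (SD, n = 48) in SVEC, a log2 fold change of 1.11 ± 0.28 (SE; adjusted p = 0.00142, edgeR quasi-likelihood test with Benjamini-Hochberg adjustment over all genes). Its partner in the glycoprotein cycle, Canx, was also higher in C10 by this test, at 542 ± 301 against 354 ± 316 CPM and a log2 fold change of 1.00 ± 0.33 (adjusted p = 0.0188). The ranges of the lines overlapped for both genes, with 3 SVEC cells at 0 for Calr and 4 for Canx. These 2 of 10 genes compare with 14.4% of the 9303 genes tested that passed as higher in C10, so their share is close to the background. With library totals in place of TMM factors, the calls over all genes went from 1337 higher and 417 lower to 920 higher and 670 lower.

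The other 8 did not pass. Xbp1 had the largest log2 fold change of all 10, 1.24 ± 0.55 (adjusted p = 0.109), on means of 110 ± 95.8 and 73.0 ± 176 CPM. Atf4 stood at 0.88 ± 0.36 (adjusted p = 0.0798), Pdia3 at 0.69 ± 0.29 (0.0870), Pdia6 at 0.69 ± 0.31 (0.116) and Ddit3 at 0.65 ± 0.45 (0.364), all by the same edgeR test. Pdia4 at 0.06 ± 0.50, Hsp90b1 at -0.01 ± 0.32 and Hspa5 at -0.28 ± 0.35 had values near or below 0. Hspa5, Hsp90b1 and Pdia4 had higher mean CPM in SVEC (148, 1186 and 214) than in C10 (99.8, 896 and 182).

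The scaling moves these values, and CPM, being relative, does not tell less RNA per cell from a lower share of it. With TMM factors the median gene was 0.35 higher in C10 on the log2 scale, and with plain library totals the median was -0.00. In simulated counts more of edgeR's calls were false than its threshold allows. The 2 medians come from the same 9303 genes and the same test, with only the scaling changed. Which scaling is closer to the levels in the cells was not tested. Relative to the median, Calr was 0.76 and Canx 0.65 higher, Xbp1 0.89 and Atf4 0.53 higher, and Hspa5 was -0.63 and Hsp90b1 -0.35. With library totals only Calr passed (log2 fold change 0.82 ± 0.26, adjusted p = 0.0165, edgeR), against a background of 9.89%, and Canx did not (0.60 ± 0.31, adjusted p = 0.191). DESeq2 called 6 of the 10 (background 14.8%) and limma on log2(CPM + 1) called 7 (background 31.1%), all higher in C10. In libraries of at least 100000 counts (45 C10 and 42 SVEC), 6 passed in edgeR: Calr, Canx, Pdia3, Pdia6, Atf4 and Xbp1 (background 17.4%). With libraries thinned to 100000 counts, Calr (0.83 ± 0.26, adjusted p = 0.0148) and Xbp1 (1.53 ± 0.50, adjusted p = 0.0221) passed (background 10.7%). Calr was the only gene of the 10 to pass under every setting run.

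**Figure D2:**
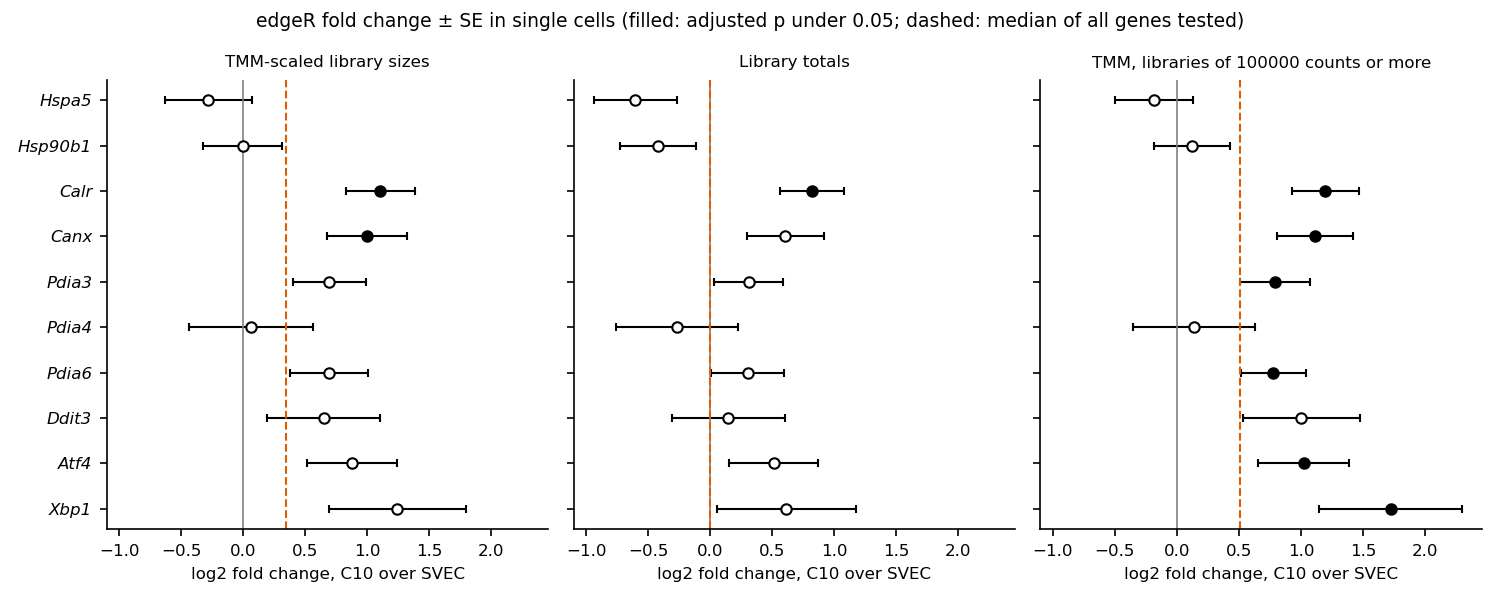
Log2 fold change of C10 over SVEC single cells (horizontal axis) with its SE for each of the 10 genes, from edgeR with TMM factors, with library totals, and with TMM on libraries of 100000 counts or more. Filled points passed an adjusted p of 0.05 and the dashed line is the median of all genes tested: Calr is filled in all 3 panels, and Hspa5 lies left of the dashed line in each.

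Genes that ATF4 switches on had the highest share of calls of the 6 pathway lists. Of 24 listed targets 20 could be tested, and 13 were higher in C10 and 0 lower (edgeR, adjusted p under 0.05; background 14.4% higher and 4.48% lower). Their median log2 fold change was 1.92, against 0.35 for all genes. Nupr1 and Vldlr had 0 counts in all single cells of both lines, and Ddit4 and Stc2 had counts in at most 1 cell of each line. The list was chosen with earlier results of these data known, and the count describes it without testing it as a set.

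Among these targets, Trib3, a pseudokinase that dampens the response, had a median of 223 CPM in C10 (0 to 1197, 35 of 46 cells) and of 0 in SVEC (0 to 564, 5 of 48 cells). Its log2 fold change was 3.83 ± 0.76 (adjusted p = 3.95e-05, edgeR). Chac1, an enzyme that degrades glutathione, had a median of 225 CPM in C10 (0 to 930, 40 cells) and 0 in SVEC (0 to 297, 9 cells), with a log2 fold change of 3.70 ± 0.70 (adjusted p = 1.45e-05, edgeR). The next genes were picked after their values were seen. Eif4ebp1, which restrains cap-dependent translation, had counts in all 46 C10 cells, at 197 to 2319 CPM with a median of 697, and a median of 67.5 CPM in SVEC (0 to 1074, 37 cells). Asns, which makes asparagine, had medians of 645 and 84.0 CPM. Psph, of the serine pathway, had medians of 492 and 0 CPM. Sesn2 had the largest fold (5.91 ± 0.86), but rests on 22 C10 cells and 2 SVEC cells.

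The direction was not shared by every target. Slc7a11, the cystine transporter, had a mean of 16.7 ± 43.7 CPM in C10 and 49.8 ± 46.1 in SVEC, a log2 fold change of -1.28 ± 0.64 that did not pass in edgeR (adjusted p = 0.167). Limma called 17 targets higher in C10 and Slc7a11 lower (backgrounds 31.1% higher and 3.53% lower), and thinned counts gave 14 higher and Slc7a11 lower (backgrounds 10.7% higher and 6.76% lower). With library totals 11 of 20 were higher (background 9.89%), with a list median of 1.53. Of the mRNAs of the regulators themselves, neither Atf4 nor Ddit3 passed with edgeR as given above. Atf4 passed as higher in C10 with DESeq2, limma, no filter, the replicate number as a block and libraries of at least 100000 counts. Ddit3 did so with limma. The difference between regulators and targets was not tested.

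For the ER-resident lists the background is again 14.4% of genes higher in C10. Of 27 other chaperones and folding enzymes tested, 2 were higher in C10: Ero1a, the oxidase that recharges protein disulfide isomerases (1.88 ± 0.65, adjusted p = 0.0287, edgeR), and Hyou1, an exchange factor for Hspa5 (2.82 ± 0.86, adjusted p = 0.0107), named after its values were seen because it was found in 18 of 46 C10 cells. The list median was 0.36, against 0.35 for all genes. Of 17 degradation genes tested 2 were higher, Derl1 of the retrotranslocation channel (1.33 ± 0.41, adjusted p = 0.0113, edgeR; counts in all 46 C10 cells) and Sel1l (2.65 ± 0.87, adjusted p = 0.0202), which was found in 22 C10 cells and was likewise named after its values were seen. Of 17 translocon genes 5 were higher, including Sec63 (2.00 ± 0.71, adjusted p = 0.0353, edgeR) and Ssr4 (1.55 ± 0.40, adjusted p = 0.00211). None of these lists held a gene that passed as lower in C10, but with library totals the translocon list had 3 higher and 2 lower (Sec62 and Spcs1), the degradation list 0 and the other chaperones 1, where 920 of 9303 genes were higher (9.89%) and 670 lower. Of the 6 sensor genes 4 could be tested and 0 passed in edgeR, with 0 at an unadjusted p under 0.05. Their log2 fold changes ran from -0.11 ± 0.72 for Mbtps1 to 1.49 ± 0.77 for Atf6. DESeq2 also called 0, and limma called Atf6 and Atf6b higher.

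Heat shock and immediate early genes, which cell handling can induce, were listed as well. Of 10 tested, 0 were higher in C10 and 3 lower (edgeR, against 4.48% of all genes): Fos (-1.79 ± 0.51, adjusted p = 0.00635), Ier2 (-1.86 ± 0.49, adjusted p = 0.00262) and Fosb (-3.09 ± 0.93, adjusted p = 0.00997, counts in 13 of 48 SVEC cells and named after its values were seen). All 3 are immediate early genes, and the other 7 did not pass. The summed level of the 12 genes ran from 77.2 to 1966 CPM in C10 cells (mean 812) and from 0 to 5124 in SVEC cells (mean 1838). Of the heat shock genes, Hspa1a and Hspa1b were found in at most 6 cells of either line. Dnajb1 was found in 29 of 46 C10 and 27 of 48 SVEC cells, and Hsph1 in 22 C10 and 10 SVEC cells. The part of handling in the differences between lines was not tested.

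**Figure D3:**
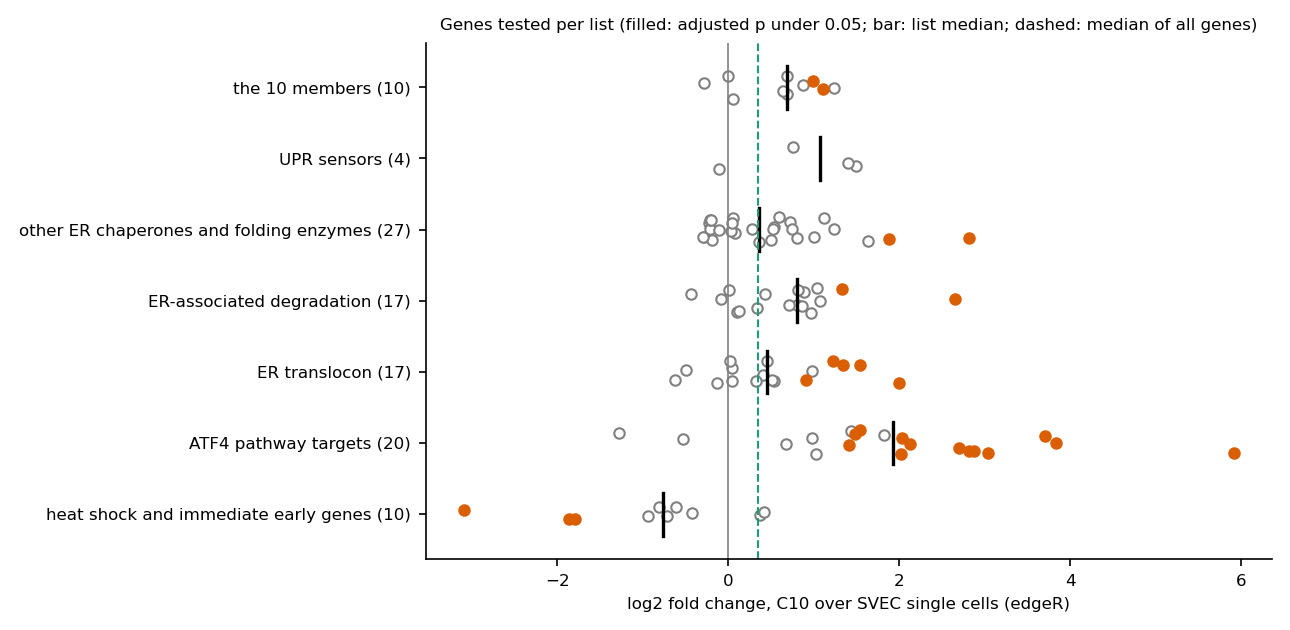
Each point is 1 tested gene of a list, placed by its log2 fold change of C10 over SVEC single cells from edgeR; filled points passed an adjusted p of 0.05, black bars are list medians, and the dashed line is the median of all genes. The ATF4 targets have 13 filled points to the right and a median of 1.92, and the heat shock and immediate early genes have 3 filled points to the left.

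Single cells also show which of the 10 transcripts vary together. The values below are Pearson r of log2(CPM + 1) over 46 C10 or 48 SVEC libraries, given as a description without a test, since all pairs share library depth and cells at 0 weigh heavily. In C10 the 21 pairs of chaperones had a median r of 0.21 and 20 were above 0. All pairs of genes found in at least 90% of the cells had a median of 0.06, with 1004797 of 1657110 above 0. Pairs of a chaperone with Ddit3, Atf4 or Xbp1, pooled, had a median of 0.03, with 11 of 21 above 0. The pooled value hides Xbp1, which had r = 0.30 with Pdia3 and with Pdia6, 0.27 with Calr and 0.20 with Hspa5. Its other values were 0.08 with Hsp90b1, -0.05 with Canx and -0.07 with Pdia4. The ranges for Atf4 and Ddit3 are given below.

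The leading C10 pair was Hspa5 with Pdia6, at r = 0.76, which ranked 1 of 1820 genes compared with Hspa5. Spearman's rho for it was 0.43, and r was 0.65 without the 2 cells farthest from the Hspa5 median, so those cells raise it. Hspa5 with Hsp90b1 followed at r = 0.62 (rho 0.57, and 0.74 without those 2 cells), and Hspa5 with Pdia3 at 0.56 (rho 0.51, and 0.34 without them). Other pairs were near 0: Canx had r = 0.07 with Hspa5, 0.01 with Hsp90b1 and 0.06 with Calr (rho 0.17, 0.19 and 0.18), and Pdia4 had r = 0.01 with Hsp90b1 (rho 0.24) and -0.01 with Canx (rho 0.09). The 10 C10 pairs in which both chaperones hold the exact ERSE had a median r of 0.33, and the other 11 pairs 0.20. By rho these were 0.28 and 0.32, the reverse order. In SVEC the same medians were 0.39 and 0.35 by r, and 0.25 and 0.32 by rho.

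Among the regulators, Ddit3 and Atf4 varied together in C10 (r = 0.55, rho 0.42, 0.63 without the 2 cells farthest from the Ddit3 median and 0.43 without the 2 farthest from the Atf4 median), and less so by the same measure in SVEC (r = 0.21, rho 0.08); that difference was not tested. With the chaperones in C10, r ran from -0.22 (Pdia3, rho -0.00) to 0.05 (Hspa5) for Atf4 and from -0.18 (Pdia3) to 0.18 (Canx) for Ddit3. The values for Atf4 depend on few cells. Without the 2 cells farthest from its median they were 0.24 for Pdia6, 0.23 for Hspa5 and 0.15 for Hsp90b1. Canx then stood at 0.05, Pdia3 at 0.04 and Calr at -0.06, and Pdia4 was not among the genes checked. Xbp1 had r = 0.04 with Ddit3 and 0.12 with Atf4. Atf4 and the mitochondrial share of counts had r = -0.75 over C10 cells (rho -0.43), but -0.32 without the 2 cells with the most deviant share. Over the 17 ATF4 targets found in at least 25% of C10 cells, the median r with Atf4 was 0.28, with 16 above 0. For all 5769 genes it was 0.10, with 4102 above 0. With Ddit3 the targets had 0.25, with 17 of 17 above 0, against 0.11 and 4210 of 5769 for all genes. Atf4 also had a median of 0.24 with the 17 translocon genes, so the ATF4 targets were not alone in this. Hspa5 gave 0.10 with the same targets, against -0.03 for all genes. In SVEC 9 targets could be used, and their median r was 0.24 with Atf4 (0.16 for all 3060 genes) and 0.12 with Ddit3 (0.09). With Ddit3, 7 of 9 were above 0, as were 2205 of all 3060 genes. With Hspa5 the median was 0.34 (0.24 for all genes), so there the highest value was with Hspa5. In C10, Shmt2, of mitochondrial serine metabolism, had r = 0.53 with Atf4 and 0.62 with Ddit3, and was picked after its values were seen.

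In SVEC the 21 chaperone pairs had a median r of 0.36, all above 0, on a background of 0.16 with 70194 of 100128 pairs above 0. Pairs of a chaperone and a regulator had a median of 0.15, with 19 of 21 above 0. In the 42 libraries of at least 100000 counts the chaperone pairs had 0.23, with 20 of 21 above 0. The background there was 0.04, with 188631 of 330078 pairs above 0. Pairs with a regulator also had 0.23, so the separation of medians seen over all C10 cells was absent in these libraries. Hsp90b1 with Calr led at 0.74 and kept 0.72 in those libraries, but its rho was 0.35. Hspa5 moved with depth in SVEC (r = 0.74 with log2 total counts, rho 0.51). In C10 the same r was 0.38, but rho was 0.01. The SVEC pair of Hspa5 with Pdia6 had r = 0.62 over all cells and 0.14 in the deeper libraries.

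**Figure D4:**
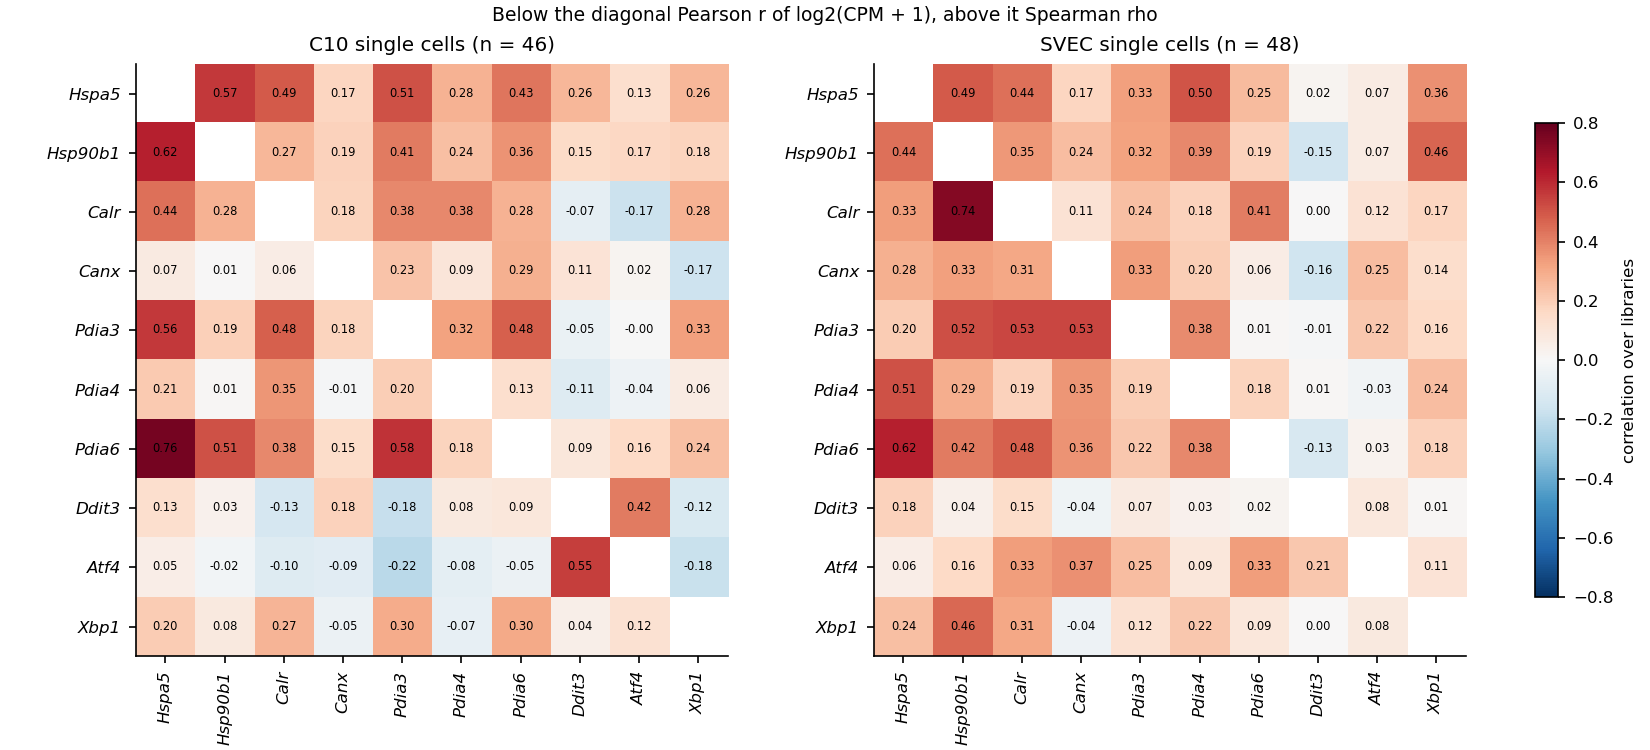
Correlation of the 10 transcripts over C10 (n = 46, left) and SVEC (n = 48, right) single cells; Pearson r of log2(CPM + 1) stands below the diagonal and Spearman's rho above it, coloured from blue (negative) to red (positive). The darkest cell in C10 is Hspa5 with Pdia6 (0.76) and in SVEC Hsp90b1 with Calr (0.74).

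The genes outside the 10 that varied most like Hspa5 in C10 were Emc3, of the ER membrane insertase (r = 0.69), P4hb, the founding protein disulfide isomerase (0.68), Copb2, of the COPI coat (0.61), Cct7, of the cytosolic chaperonin (0.61), and Pkm (0.60), of 1812 genes found in at least 90% of the cells. Without the 2 cells farthest from the Hspa5 median these were 0.21, 0.49, 0.30, 0.46 and 0.44. For Atf4 in C10 they were Rpl5 (0.76), Ndufa8 (0.71), Glo1 (0.71), Atp6v1g1 (0.70) and Nhp2 (0.69), which came to 0.16 to 0.33 without the 2 farthest cells, so these likenesses rest on those cells. In SVEC, 443 genes could be ranked. Tuba1c, Yeats2, Hmgb2, Akr1a1 and Ywhaq led for Hspa5 (0.71 to 0.77) and came to -0.37 to 0.21 in libraries of at least 100000 counts. Slc25a3, Atp6v1e1, Rpl31, Cox5a and H2az2 led for Atf4 (0.44 to 0.52) and stood at 0.23 to 0.53 there. Of the 20 genes, P4hb alone is also an ER chaperone of the lists used here.

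The input series asks what changes when 1, 3 or 10 cells enter a library. No gene of the 10 passed a test for a change of level. Hspa5 ranged from 0 to 164 CPM in the 1-cell libraries (median 40.3), from 23.2 to 120 in the 3-cell libraries (median 50.3) and from 44.1 to 159 in the 10-cell libraries (median 79.4), and the 3 ranges overlapped. Pdia3, the most abundant of the 10 in this series, ranged from 0 to 1775 CPM (median 757), from 717 to 1304 (median 981) and from 707 to 1304 (median 1065). Atf4 ranged from 0 to 622 CPM (median 339), from 331 to 760 (median 440) and from 328 to 666 (median 544). In each of these genes the 1-cell libraries included the lowest and, except for Atf4, also the highest value.

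By edgeR, 0 of 10 passed between 10 cells and 1 cell (background 10.7%), between 3 cells and 1 cell (6.35%) and between 10 and 3 cells (0.00%, 0 of 13645 genes, with 1346 at an unadjusted p under 0.05). None of the 10 was at an unadjusted p under 0.05 in edgeR. DESeq2 also called 0 of 10 in each (backgrounds 9.39%, 11.7% and 2.39%), as did limma (10.4%, 0.887% and 0.257%), where 4, 3 and 0 of the 10 were at an unadjusted p under 0.05. The estimates were wide: for 10 cells against 1 cell, log2 fold changes ran from -0.92 ± 1.19 for Xbp1 to 0.76 ± 1.28 for Ddit3. Leaving out replicate 1 of the 1-cell group, the library without counts for these genes, kept the count at 0 and brought the background from 1456 to 336 genes for 10 cells and from 866 to 32 genes for 3 cells. For 3 cells the background also went to 32 without replicate 9, to 39 without 5, to 55 without 14, to 141 without 13, to 223 without 2 and to 2035 without 10. For 10 cells it went to 2769 without replicate 10, and the members' count was 0 in each. In simulated counts at these group sizes few changed genes were recovered, so a change could have been missed. Of the pathway lists, each had at most 1 gene past the threshold in these comparisons.

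The spread between libraries was larger with 1 cell. In 1-cell libraries single transcripts were often missing: Pdia4, Pdia6 and Ddit3 had counts in 5 of 8 libraries, and in replicate 14 Calr stood at 1025 CPM and Hsp90b1 at 1015 while Pdia6 and Ddit3 were at 0 and Atf4 at 0.128. With 3 or 10 cells no gene of the 10 was at 0 in any library, the lowest value being Xbp1 at 2.29 CPM in replicate 1 of the 10-cell group. The median coefficient of variation of the 10 genes was 0.981 with 1 cell, 0.417 with 3 and 0.367 with 10, without a test. Over 2367 genes of at least 50 CPM it was 1.05, 0.490 and 0.324, so the 10 genes followed the trend of other abundant genes. Without replicate 1 the 1-cell value was 0.845. Pdia3 varied least (0.209 with 3 cells and 0.212 with 10), and Xbp1 most (0.622 and 0.596).

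**Figure D5:**
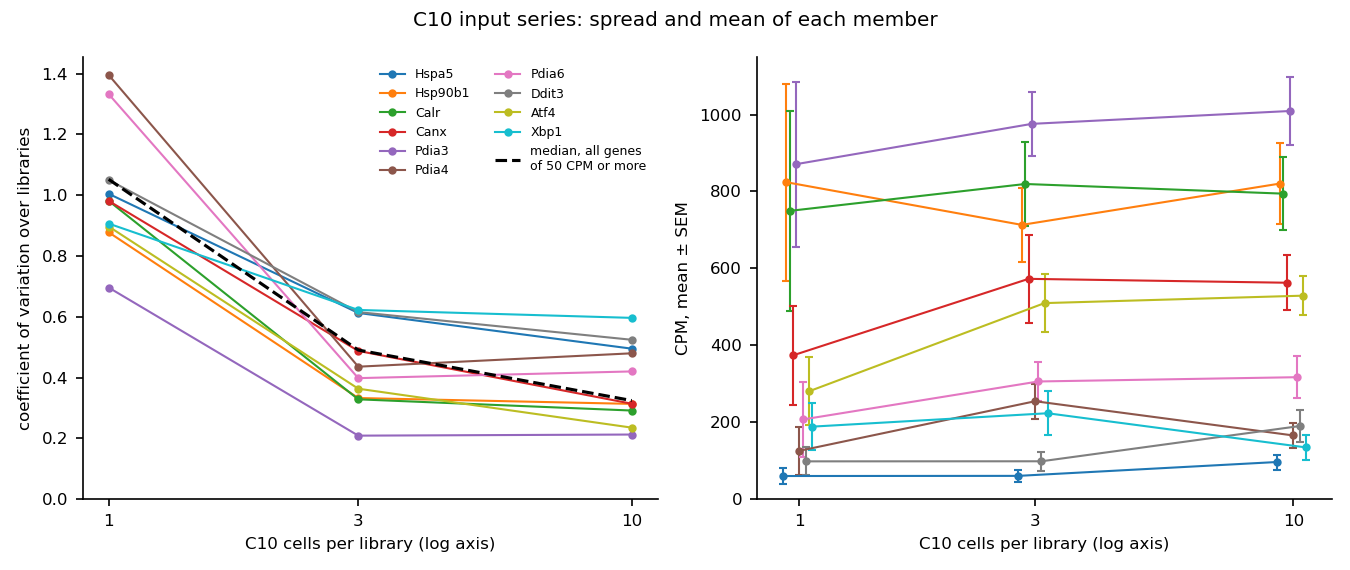
C10 libraries of 1 cell (n = 8), 3 cells (n = 6) and 10 cells (n = 6) on a log horizontal axis; the left panel plots the coefficient of variation of CPM of each gene with the median of all genes of at least 50 CPM as a dashed line, and the right panel the mean CPM with its standard error. The spread is highest with 1 cell for all 10 genes, and Pdia3 has the highest mean at each input.

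The 2 sets of C10 libraries from 1 cell, the single cells (n = 46) and the 1-cell libraries (n = 8), were also compared. By edgeR 0 of 10 passed (background 15.1%). Pdia3 and Xbp1 were at an unadjusted p under 0.05 and lower in the single cells, Pdia3 at 639 ± 426 against 871 ± 606 CPM (log2 fold change -1.03 ± 0.42, adjusted p = 0.0917, edgeR) and Xbp1 at 110 ± 95.8 against 188 ± 171 CPM (-1.62 ± 0.70, adjusted p = 0.117). DESeq2 called both lower (background 9.36%). Limma called Calr, Pdia6 and Atf4 higher instead (background 5.21%), and thinned counts called Pdia6 and Atf4 higher (background 7.22%). Atf4 stood at 766 ± 396 CPM in the single cells and 280.2 ± 251 in the 1-cell libraries, and Pdia6 at 576 ± 344 against 207 ± 276. The tools thus named different genes, and no difference between the sets held across them.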

How the data were processed

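Read counts per gene were used as deposited by the authors, 1 file per library. Per the submitters' processing notes, FastQC, STAR and HTSeq were used. Versions, genome build, annotation and strand setting are not given in the sources used here. The protocols name no molecular identifiers; PCR copies are therefore counted. Counters of unassigned reads were left out of totals (ambiguous reads: median 4.15%, highest 6.46%). Libraries under 1000 counts were left out.

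CPM is the count scaled to a library total of 1000000 over genes. Genes were tested with edgeR 4.0.16 in R 4.3.3 (quasi-likelihood, TMM), adjusted over all genes with counts in at least 25% (single cells) or 50% (input series) of the libraries of a group, with DESeq2 1.42.0 and limma 3.58.1 on log2(CPM + 1) as alternatives. The input groups were fitted together, and all 10 genes passed the filter in each comparison. The SE was taken from the F statistic. The fits were tested on simulated counts: in comparisons with single cells, edgeR called more unchanged genes than its threshold allows, in both scalings, and limma called fewer of them than edgeR. Between 10 cells and 1 cell few changed genes were recovered.

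The 10 genes and the lists were chosen with earlier results of these data known. Named genes were the 10, the 2 largest folds in each direction per list among genes past the threshold for C10 against SVEC and found in 50% of the higher group, and the 5 genes most correlated with Hspa5 and with Atf4 per line.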

Additional observations from a re-analysis of the deposited data

Results flagged for a closer look

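The 10 genes were checked for a library far from the others in each of the 3 groups of the input series, 30 sets of values in all. About 1 in 20 such sets, or 1.5 here, would be marked by chance. One was: Calr in replicate 1 of the 10-cell group stood at 369 CPM, and the next lowest library was at 785. The gap was 0.631 of the whole range, against a critical value of 0.625 for 6 libraries. Xbp1 was also lowest in that library, at 2.29 CPM.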

How the results depend on the processing

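Between C10 and SVEC single cells edgeR called 2 of the 10 genes. This became 1 with library totals, 1 with a filter of counts in 90% of a group, 1 with the share of genes detected as a covariate, 6 with DESeq2, 7 with limma and 6 with libraries of at least 100000 counts. With the replicate number as a block it was 5. The labels do not say whether a shared number pairs samples. Of libraries with the same number, 5 of 46 pairs had correlated deviations over 0.1 there, and 0 of 6 or 1 of 8 in the other comparisons. Such a check cannot detect a weak pairing and does not settle the question. Calr passed in each of these settings. The ATF4 targets called went from 13 to 7 with the 90% filter, where 9 were tested, and to 8 with the covariate. Between C10 single cells and 1-cell libraries, 0 became 2 with DESeq2, 3 with limma and 2 with thinned counts, and Calr turned from a log2 fold change of -0.37 to 2.30 with limma. The cause was not tested.

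In the input series the count of the 10 genes stayed at 0 under every alternative, with 0 to 0 when each library was left out, and the block left 0 of all genes called in each of these 3 comparisons. Over all genes, C10 against SVEC gave 3223 calls with limma, 5437 with no filter, 489 with the 90% filter and 3199 with the block, against 1754. For 10 cells against 1 cell, 1456 became 48 with no filter, 412 with the 90% filter, 733 thinned and 0 with the covariate. For 3 cells against 1 cell, 866 became 1601 with DESeq2, 121 with limma, 65, 281, 458 and 0 under the settings of the previous sentence. For 10 against 3 cells, 0 became 326 with DESeq2, 35 with limma and 2 with the covariate. For C10 single cells against 1-cell libraries, 1852 became 1156 with limma, 4365 with no filter, 120 with the 90% filter, 893 thinned and 0 with the block. With thinned counts, which kept 42 SVEC libraries, the share of SVEC libraries with counts went from 91.7% to 100% for Hspa5, from 85.4% to 95.2% for Pdia6, from 72.9% to 73.8% for Ddit3 and from 58.3% to 59.5% for Xbp1.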
